A study of Mus musculus with 24 samples.

Results

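Whole livers of mice lacking *Gdf2* and *Bmp10* in hepatic stellate cells (HSCs) were compared with whole livers of control mice by RNA-seq. The 6 libraries described here are those that the sample labels give as liver tissue, 3 per group, out of 24 libraries in the series, whose other libraries come from sorted liver macrophages and endothelial cells (ECs). HSC-KO mice (labelled Bmp9/10-HSC-KO) carried floxed alleles of *Gdf2*, which encodes GDF2 (also called BMP9), and of *Bmp10*, together with a Cre recombinase under the *Lrat* gene. *Lrat* is active in HSCs, the retinoid-storing pericytes of the liver, so other cell types kept their alleles, and both ligands could still reach the liver from elsewhere. The control mice were labelled only as control with regard to genotype. The study's general methods speak of littermates, without naming the mice of these libraries. All mice were labelled as strain C57BL/6 and were 12 weeks old, and their sex is not given in the labels. The question put to these libraries was how the liver as a whole, with its hepatocytes, vessels, macrophages and stroma, was affected when both genes were deleted in HSCs.

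GDF2 and BMP10 are circulating ligands of the TGF-beta superfamily that bind the receptor ALK1 (encoded by *Acvrl1*) and the coreceptor endoglin on ECs, and signal through SMAD1 and SMAD5 to targets such as the *Id* genes and the inhibitory *Smad6*. In the liver sinusoid, a fenestrated capillary without a continuous basement membrane, ECs, Kupffer cells (KCs, the resident macrophages) and HSCs lie side by side next to the hepatocytes. ECs of the central vein secrete Wnt ligands, which maintain the program of pericentral hepatocytes, while hepatocytes near the portal vein run urea synthesis and gluconeogenesis.

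In whole tissue, a lower level of a gene can come from fewer cells of a type or from less RNA per cell, and these cannot be told apart here. The counts per library summed to between 73941995 and 104087482. Levels are given as CPM, the counts of a gene relative to the total of its library, scaled with the TMM factors of edgeR, always in the order of replicates 1, 2 and 3. Risen or fallen genes are those that changed more than 2-fold with a Benjamini-Hochberg adjusted p below 0.05 by the quasi-likelihood test of edgeR, and every log2 fold change is HSC-KO minus control. The tissue label was matched by its defining transcripts, as *Alb*, encoding albumin, was at 83309, 79912 and 99460.1 CPM in control and 148388, 120640.000 and 105520.000 CPM in HSC-KO livers.

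Of the deleted genes, *Gdf2* (chromosome 14, 33941039 to 33947198, plus strand, GRCm38) was at 18.4, 9.38 and 22.5 CPM in control and 3.85, 2.12 and 2.63 CPM in HSC-KO livers. It fell in HSC-KO livers (log2 fold change -2.55, SE 0.37, adjusted p = 0.0135), and its lowest control was above its highest HSC-KO value. *Bmp10* (chromosome 6, 87428994 to 87437677, plus strand) was at 3.28, 2.72 and 1.99 CPM in control and 0.0938, 0.262 and 0.111 CPM in HSC-KO livers (log2 fold change -4.07, SE 0.49, adjusted p = 0.00657). Both falls held without HSC-KO replicate 3, at -2.49 (adjusted p = 0.0347) and -3.88 (adjusted p = 0.0144). The *Gdf2* call was lost without control replicate 1 (adjusted p = 0.0549) or control replicate 3 (adjusted p = 0.0569), while *Bmp10* was called without any one library. Reads of both genes remained in each HSC-KO library.

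One library stood apart. In HSC-KO replicate 3, *Xist*, the transcript that silences an X chromosome in female cells, was at 0.167 CPM, while the other 5 libraries were at 303, 708 and 578 CPM (controls) and 421 and 533 CPM (HSC-KO). The Y-linked genes *Ddx3y*, *Kdm5d*, *Uty* and *Eif2s3y* had 8818 counts together in that library and 0 in each of the other 5. Several liver genes known for a sex bias followed the same split, as shown in the plot of sex-biased genes, while the female-biased *Sult3a1* and *Cyp3a41a* were lower in all 3 HSC-KO libraries than in any control. *Mup20*, a major urinary protein higher in males, was at 31.96, 21.7 and 44.8 CPM in control and 48.6, 21.8 and 1890.5 CPM in HSC-KO livers, and *Cyp2b9*, a cytochrome P450 higher in females, was at 474, 592 and 407 CPM in control and 432, 439 and 0.4597 CPM in HSC-KO livers. In a principal component analysis of the 500 most variable genes, PC1 held 52.53% of the variance. It separated the controls (-14.0, -19.6 and -14.7) from the HSC-KO libraries (9.13, 6.36 and 32.8), with HSC-KO replicate 3 farthest out. PC2 (32.16%) also set HSC-KO replicate 3 (-18.5) apart from the other HSC-KO libraries (16.6 and 21.7), so both components carried that library. Without HSC-KO replicate 3, PC1 held 71.36% of the variance. The sex signal cannot be told apart from this one animal, so every call was repeated for 3 controls against HSC-KO replicates 1 and 2. Of the 132 called genes given with a fold change here or in the closing section, 122 kept their call, and the 10 that did not are given with their values without replicate 3.

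**Figure D1:**
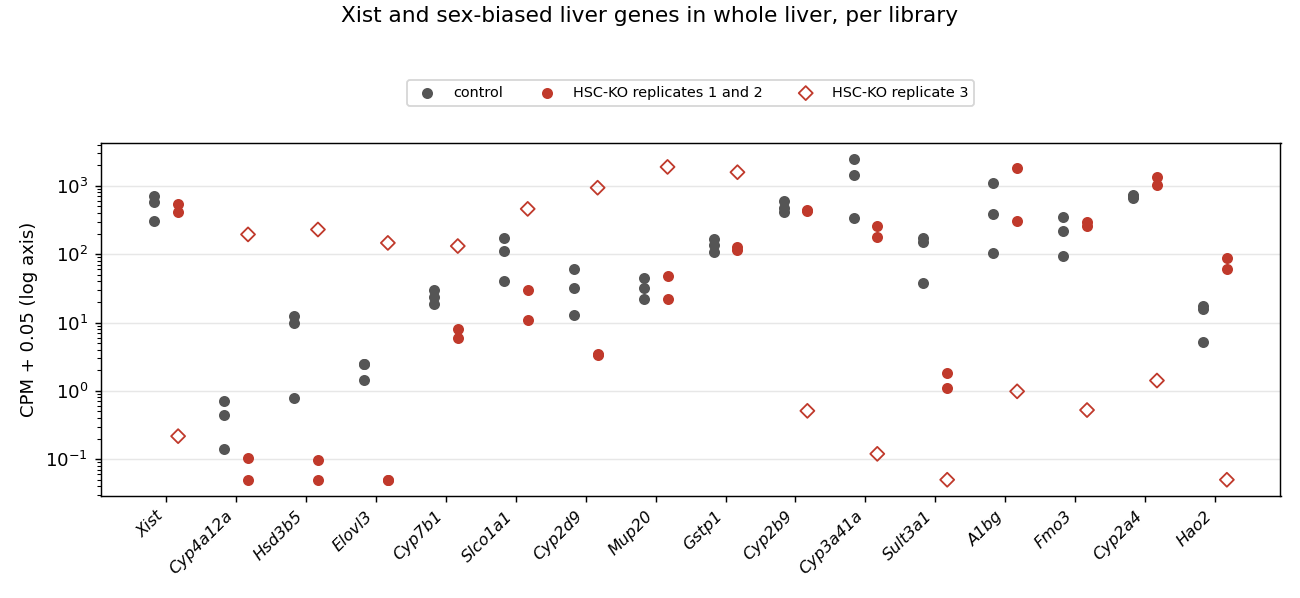
Level of *Xist* and of 15 sex-biased liver genes in each of the 6 libraries, in CPM plus 0.05 on a log axis, where filled grey circles are controls, filled red circles HSC-KO replicates 1 and 2 and open diamonds HSC-KO replicate 3. For *Xist*, HSC-KO replicate 3 sits at 0.167 CPM and the other libraries between 303 and 708 CPM.

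Of 17118 genes tested, 425 (2.48%) changed, 177 of them upward (1.03%) and 248 downward (1.45%). By the adjusted p alone, 484 genes (2.83%) passed. Each of the 425 genes had groups that did not overlap, so for a called gene non-overlap restates the call and is no added evidence. The share of non-overlapping groups among all genes tested is not given here. Without HSC-KO replicate 3, 207 genes rose (1.16% of 17803) and 244 fell (1.37%). The count was lower when another library was left out, at 266, 188 and 193 genes without control replicates 1, 2 and 3, at 191 without HSC-KO replicate 1 and at 300 without HSC-KO replicate 2. In the fits with and without HSC-KO replicate 3, 340 genes changed the same way, 147 upward and 193 downward. The median log2 fold change over all genes tested was -0.0098, so the lists below are read against a centre close to 0. Among genes whose log2 CPM averaged 3 or more, the 8 largest rises were in *Aplnr*, *Ly6c1*, *Esm1*, *Clec2h*, *Fam101b*, *Mcf2l*, *Cd34* and *Cd200*. The 8 largest falls were in *Slc1a2*, *Clec4g*, *Clec4f*, *Cd5l*, *Vsig4*, *Sult3a1*, *Oit3* and *Dnase1l3*. These genes are markers of continuous capillaries on the rising side, except *Clec2h*, *Fam101b*, *Mcf2l* and *Cd200*, which are in none of the lists, and of pericentral or female hepatocytes, sinusoidal ECs and KCs on the falling side.

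**Figure D2:**
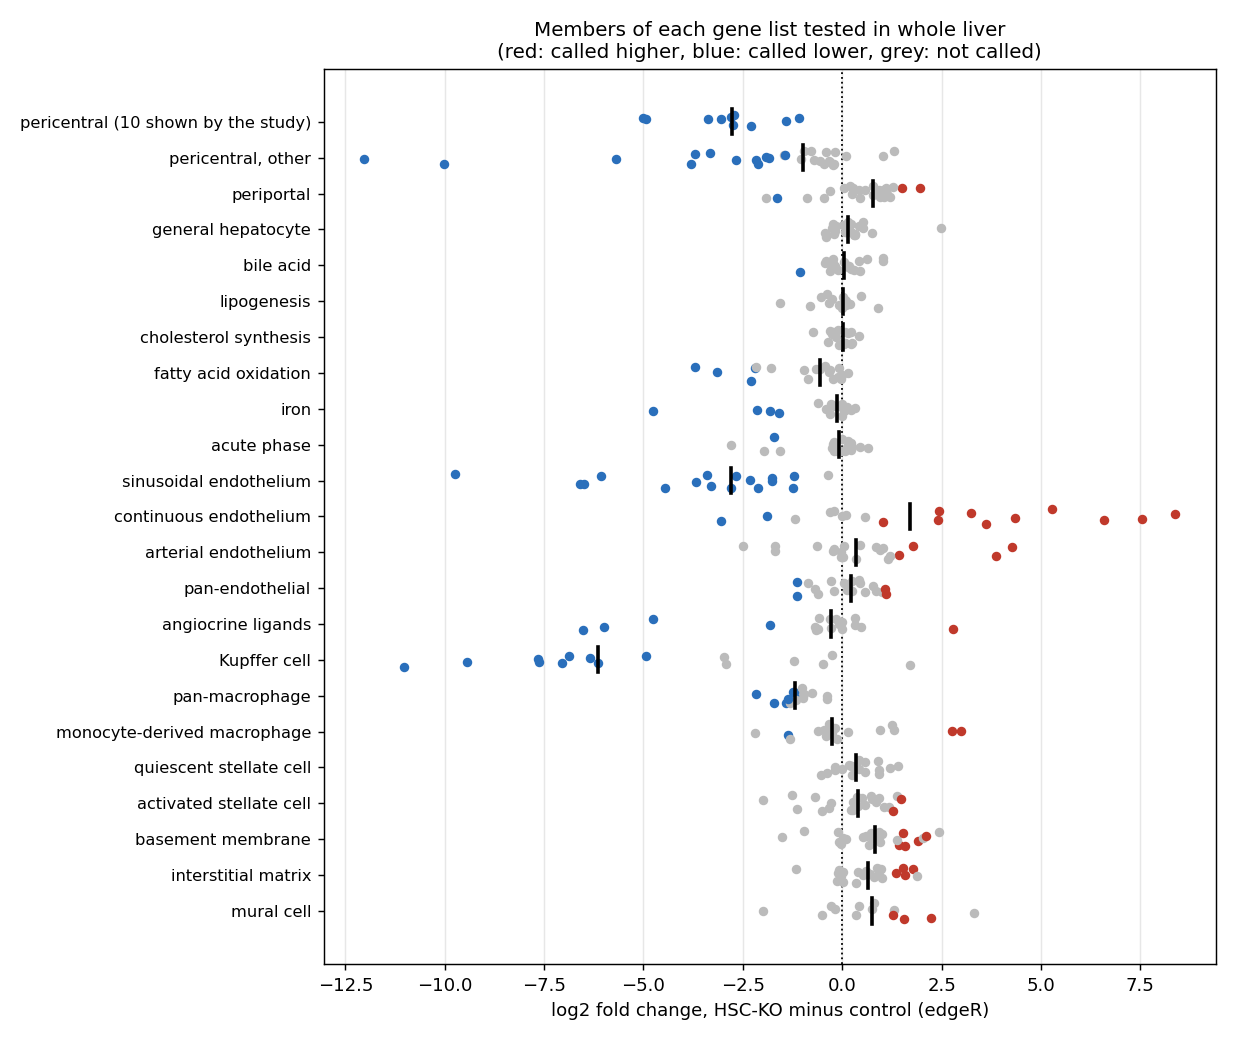
Log2 fold change (HSC-KO minus control) of each tested member of 23 gene lists, one point per gene, with a black bar at the median of the list and a dotted line at the median of all genes (-0.0098). Sinusoidal EC, Kupffer cell and the 10 pericentral genes chosen by the study lie to the left, at medians of -2.81, -6.15 and -2.78, the other pericentral genes have a median of -0.99, and continuous EC genes to the right, at 1.72.

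Pericentral hepatocyte genes fell. The 10 pericentral genes that the study itself chose from these libraries fell without exception (median log2 fold change -2.78), and this count is no independent evidence of their direction. *Glul* (chromosome 1, 153899944 to 153909723, plus strand), which encodes the glutamine synthetase of the hepatocytes around the central vein, was at 884, 558 and 712 CPM in control and 25.1, 18.4 and 23.1 CPM in HSC-KO livers (log2 fold change -5.01, SE 0.24, adjusted p = 0.000226). *Cyp2e1* (chromosome 7, 140763739 to 140774987, plus strand), a cytochrome P450 that oxidises ethanol and paracetamol, was at 5294, 4569 and 4908 CPM in control and 563, 461 and 1086 CPM in HSC-KO livers (log2 fold change -2.81, SE 0.32, adjusted p = 0.00567). Every HSC-KO library lay below every control for both genes, and replicate 3 was the highest HSC-KO library for *Cyp2e1*. The Wnt targets *Axin2* and *Rnf43*, which restrain the pathway, and *Lgr5*, a receptor for R-spondins, had log2 fold changes of -2.74, -1.41 and -4.95. *Tbx3*, a transcription factor also induced by Wnt signals, and *Oat*, ornithine aminotransferase, were at -3.05 and -3.39. Without HSC-KO replicate 3, 8 of the 10 genes passed. *Axin2* was then at -2.72 (adjusted p = 0.0680) and the tight junction gene *Cldn2* at -0.96 (adjusted p = 0.0798). With control replicate 1, 2 or 3 or HSC-KO replicate 1 left out, 6 of the 10 passed.

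Pericentral genes outside that selection showed how far this reached. Of the 28 other pericentral or Wnt-responsive genes, 12 fell, with a median log2 fold change of -0.99. Without HSC-KO replicate 3 the count was 11, with *Notum*, an extracellular Wnt inhibitor, at -1.38 (adjusted p = 0.0849). *Slc1a2* (chromosome 2, 102658659 to 102790784, plus strand), a glutamate transporter, was at 169, 142 and 142 CPM in control and 0.107, 0 and 0 CPM in HSC-KO livers. It had the largest fall of the abundant genes (log2 fold change -12.02, SE 0.70, adjusted p = 0.000348) and was near or at 0 in each HSC-KO library. *Slc13a3* (chromosome 2, 165405028 to 165473230, minus strand), which imports dicarboxylates, was at 35.8, 23.8 and 35.7 CPM in control and 0.523, 0.881 and 0.418 CPM in HSC-KO livers (log2 fold change -5.70, SE 0.33, adjusted p = 0.000348). *Lhpp*, a phosphohistidine phosphatase, was at 66.1, 59.04 and 66.3 CPM in control and 3.86, 7.69 and 2.201 CPM in HSC-KO livers (log2 fold change -3.80, SE 0.43, adjusted p = 0.00510). Groups of all 3 genes lay far apart, and each kept its fall without HSC-KO replicate 3, at -11.50 (adjusted p = 0.000589), -5.49 (adjusted p = 0.000729) and -3.46 (adjusted p = 0.00297). *Sp5*, a transcription factor induced by Wnt signalling, was at 2.3996, 1.47 and 0.754 CPM in controls and had 0 counts in all HSC-KO livers, so it was at least 118-fold lower against a floor of 3 counts over the group.

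Further members of this list fell. *Cyp2a5*, a coumarin hydroxylase, was at 489, 356 and 244 CPM in control and 54.8, 66.5 and 50.01 CPM in HSC-KO livers (log2 fold change -2.67, adjusted p = 0.00300), although its reads can be shared with a near-identical gene copy. *Gulo*, the last enzyme of vitamin C synthesis, was at 456, 296 and 439 CPM in control and 74.5, 72.6 and 119.9 CPM in HSC-KO livers (log2 fold change -2.16, adjusted p = 0.00657). *Nr1i3*, the xenobiotic receptor CAR, was at 301, 409.6 and 332 CPM in control and 110.2, 93.2 and 88.5 CPM in HSC-KO livers (log2 fold change -1.84, adjusted p = 0.00208), and 74.9% of its exon bases overlap another gene. *Rhbg* (ammonium transport), *Cyp2c37*, *Avpr1a* (a vasopressin receptor) and *Tnfrsf19* fell by log2 fold changes of -3.71, -2.13, -1.91 and -3.33, with 61.4% of the exon bases of *Rhbg* overlapping another gene. By contrast, *Cyp2c29* was at 908, 932 and 833 CPM in control and 859, 904 and 571 CPM in HSC-KO livers (log2 fold change -0.20, adjusted p = 0.772), so that its groups overlapped. Of the 28 genes, 16 did not pass the test, among them *Cyp2c50*, *Cyp2c54*, *Cyp1a1*, *Por*, *Ahr*, *Gstm1*, *Gstm2* and *Gstm3*, which also act in drug metabolism.

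**Figure D3:**
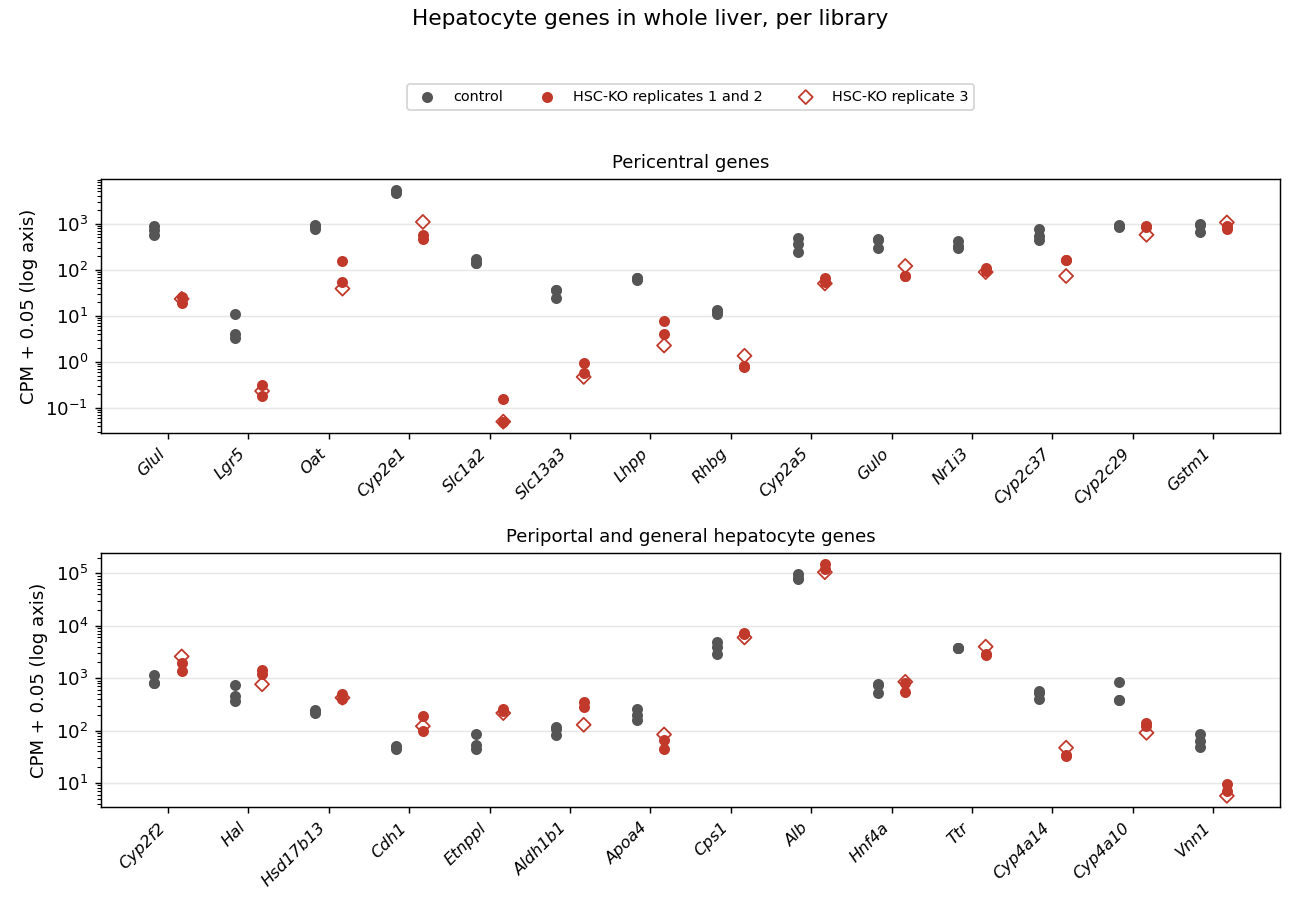
Level of pericentral, periportal, fatty acid oxidation and general hepatocyte genes in each of the 6 libraries, in CPM plus 0.05 on a log axis, where filled grey circles are controls, filled red circles HSC-KO replicates 1 and 2 and open diamonds HSC-KO replicate 3. *Glul* sits between 558 and 884 CPM in controls and between 18.4 and 25.1 CPM in HSC-KO livers, while the groups of *Ttr* overlap.

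Promoter sequences are shown for pericentral genes that fell strongly, since Wnt-dependent transcription acts through TCF and LEF factors, whose core letters are CTTTGA, or TCAAAG when read on the opposite strand. RefSeq promoters (250 bases before to 50 bases after the start, build GRCm38.p6) were found for 16 of the 22 pericentral genes that fell. The core was present on either strand in 5 of these 16 (31.2%), against 16.2% of all 27025 promoters of that table. *Slc1a2* (chr2:102706188-102706487, plus strand), *Sp5* (chr2:70474673-70474972, plus strand) and *Cyp2e1* (chr7:140763569-140763868, plus strand) held it, shown in capitals, and *Glul* (chr1:153899679-153899978, plus strand) did not hold these letters in its window. The window of *Slc1a2* lies inside the gene coordinates given above, so it belongs to an internal start. Which start these livers used was not tested. A match is a description of the letters only.
Slc1a2: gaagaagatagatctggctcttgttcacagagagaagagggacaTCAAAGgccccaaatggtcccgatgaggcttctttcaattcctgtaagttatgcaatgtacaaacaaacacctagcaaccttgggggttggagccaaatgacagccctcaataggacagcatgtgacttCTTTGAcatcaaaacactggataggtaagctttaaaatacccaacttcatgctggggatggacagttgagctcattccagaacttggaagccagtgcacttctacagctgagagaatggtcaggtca
Sp5: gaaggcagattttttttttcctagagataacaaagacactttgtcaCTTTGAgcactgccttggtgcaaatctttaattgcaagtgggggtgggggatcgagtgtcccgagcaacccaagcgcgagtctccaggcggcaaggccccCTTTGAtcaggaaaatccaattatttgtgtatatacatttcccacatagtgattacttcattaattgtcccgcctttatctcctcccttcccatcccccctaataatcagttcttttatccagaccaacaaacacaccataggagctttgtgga
Cyp2e1: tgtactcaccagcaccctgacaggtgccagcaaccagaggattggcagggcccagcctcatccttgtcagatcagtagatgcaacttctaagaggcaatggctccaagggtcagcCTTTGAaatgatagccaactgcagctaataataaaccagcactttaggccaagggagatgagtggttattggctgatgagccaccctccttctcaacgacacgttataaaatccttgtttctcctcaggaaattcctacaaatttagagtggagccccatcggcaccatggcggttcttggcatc
Glul: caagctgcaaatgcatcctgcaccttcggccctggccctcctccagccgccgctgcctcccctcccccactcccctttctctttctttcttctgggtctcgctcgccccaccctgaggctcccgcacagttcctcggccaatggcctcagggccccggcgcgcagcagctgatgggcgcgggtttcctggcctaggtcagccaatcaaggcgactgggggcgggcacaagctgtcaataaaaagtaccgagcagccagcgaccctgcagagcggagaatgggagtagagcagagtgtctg

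Periportal genes were higher on the whole, but few passed the test. Their median log2 fold change was 0.78 over 25 genes, with 2 that rose and 1 that fell. *Cdh1*, encoding E-cadherin of periportal hepatocytes and bile ducts, was at 51.03, 44.02 and 48.5 CPM in control and 192, 97.2 and 121 CPM in HSC-KO livers (log2 fold change 1.51, SE 0.24, adjusted p = 0.0207). *Etnppl*, a phospholyase of phosphoethanolamine, was at 44.2, 85.4 and 53.1 CPM in control and 242, 256 and 216 CPM in HSC-KO livers (log2 fold change 1.97, SE 0.25, adjusted p = 0.00805). Both had non-overlapping groups and kept their rise without HSC-KO replicate 3, at 1.59 (adjusted p = 0.0270) and 2.03 (adjusted p = 0.0114). *Apoa4*, an apolipoprotein of which 69.8% of the exon bases overlap another gene, fell (log2 fold change -1.65, adjusted p = 0.0211). *Hsd17b13*, a lipid droplet dehydrogenase, was at 250.4, 230.1 and 215 CPM in control and 506, 394 and 424 CPM in HSC-KO livers and passed by the adjusted p alone (log2 fold change 0.93, adjusted p = 0.0182). *Cyp2f2*, a standard periportal marker, was at 805, 1150.2 and 801 CPM in control and 1966, 1349 and 2602 CPM in HSC-KO livers (log2 fold change 1.10, adjusted p = 0.0848), which did not pass although its groups did not overlap. The amino acid enzyme genes *Sds* (89.9 to 248 CPM in control and 128 to 562 CPM in HSC-KO livers) and *Hal* (369 to 754 CPM in control and 766 to 1457 CPM in HSC-KO livers) did not pass either.

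HSC-KO replicate 3 had an effect on this list. Without it 5 genes rose, the added ones being *Gls2* at 1.27 (adjusted p = 0.0257), *Aldh1b1* at 1.60 (adjusted p = 0.00780) and *Sdsl* at 1.11 (adjusted p = 0.0325). *Gls2*, the glutaminase that feeds ammonia to urea synthesis, was at 324, 520.2 and 438 CPM in control and 966, 1090.1 and 565 CPM in HSC-KO livers, and *Aldh1b1* was at 83.97, 119.6 and 107 CPM in control and 276, 349.9 and 129 CPM in HSC-KO livers. In both, replicate 3 was the HSC-KO library nearest to the controls. The number that rose was 1 without control replicate 1 or 2, 0 without control replicate 3 and 4 without HSC-KO replicate 2, and *Apoa4* was not called without control replicate 2, control replicate 3 or HSC-KO replicate 1. In the urea and nitrogen list, 3 of 13 genes fell (*Glul*, *Rhbg* and the ornithine aminotransferase *Oat*), which are the pericentral members. *Cps1*, the first enzyme of the urea cycle, was at 2893, 3895 and 5012 CPM in control and 6947, 7427 and 5989 CPM in HSC-KO livers (log2 fold change 0.79, adjusted p = 0.126), and *Otc* (319 to 417 CPM in control and 441 to 457 CPM in HSC-KO livers), the second, did not pass.

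General hepatocyte genes did not pass the test in either direction. Of 25 such genes, edgeR called 0 (median log2 fold change 0.15), with and without HSC-KO replicate 3, DESeq2 called 0, and 5, each of them higher, had an unadjusted p below 0.05. *Hnf4a*, the nuclear receptor that maintains hepatocyte identity, was at 787, 529.995 and 754 CPM in control and 816, 541 and 853 CPM in HSC-KO livers (log2 fold change 0.094, adjusted p = 0.928). *Ttr*, encoding the thyroxine carrier transthyretin, was at 3798, 3779.99 and 3781 CPM in control and 2962, 2833 and 4003 CPM in HSC-KO livers (log2 fold change -0.21, adjusted p = 0.682). The groups overlapped in both genes. The lipogenesis list (18 genes) and the cholesterol synthesis list (19 genes) likewise had 0 members called by edgeR and 0 by DESeq2, at medians of 0.032 and 0.030, with 1 and 0 at an unadjusted p below 0.05. The groups overlapped for the lipogenic regulator *Srebf1* (191 to 267 CPM in control and 131 to 285 CPM in HSC-KO livers), for fatty acid synthase *Fasn* (462 to 1318 CPM in control and 687 to 897 CPM in HSC-KO livers) and for the desaturase *Scd1* (2233 to 7936 CPM in control and 7822 to 12986 CPM in HSC-KO livers). They also overlapped for the squalene epoxidase gene *Sqle* (57.9 to 163 CPM in control and 97.5 to 144 CPM in HSC-KO livers).

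Among fatty acid oxidation genes driven by the nuclear receptor PPARalpha, 4 of 19 fell (median log2 fold change -0.56). *Cyp4a14*, a fatty acid omega-hydroxylase, was at 523, 559 and 407 CPM in control and 34.3, 32.4 and 47.1 CPM in HSC-KO livers (log2 fold change -3.71, SE 0.22, adjusted p = 0.000348). *Vnn1*, a pantetheinase, was at 62.4, 84.3 and 48.1 CPM in control and 9.42, 6.88 and 5.63 CPM in HSC-KO livers (log2 fold change -3.15, SE 0.27, adjusted p = 0.00171). These groups did not overlap, and *Cyp4a10* and *Acot1*, an acyl-CoA thioesterase, also fell, at log2 fold changes of -2.20 and -2.28. Reads of the Cyp4a genes can be split between near-identical copies, so their values are uncertain. Without HSC-KO replicate 3 the 4 genes passed again, at -3.90 (adjusted p = 0.000589), -2.99 (adjusted p = 0.00393), -2.03 (adjusted p = 0.0443) and -2.81 (adjusted p = 0.00462), and without HSC-KO replicate 2 there were 2. The receptor gene itself, *Ppara* (67.7 to 106 CPM in control and 58.5 to 64.3 CPM in HSC-KO livers), and *Cpt1a* (335 to 452 CPM in control and 319.7 to 501 CPM in HSC-KO livers), which starts mitochondrial oxidation, did not pass.

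Bile acid genes were mostly not called. *Slco1b2*, an uptake transporter of bile acids and drugs, was at 684, 636 and 720.1 CPM in control and 291, 326 and 366 CPM in HSC-KO livers and was the one of 21 members that fell (log2 fold change -1.05, SE 0.14, adjusted p = 0.00984). It held without HSC-KO replicate 3, at -1.14 (adjusted p = 0.00880), but not without control replicate 3 or HSC-KO replicate 1. *Cyp7a1*, the rate-limiting enzyme of bile acid synthesis, was at 38.3, 92.2 and 33.5 CPM in control and 97.4, 166 and 72.6 CPM in HSC-KO livers (log2 fold change 1.04, adjusted p = 0.386). *Cyp8b1* (196 to 501 CPM in control and 333 to 482 CPM in HSC-KO livers), for cholic acid synthesis, and *Abcb11* (678 to 755 CPM in control and 899 to 1019 CPM in HSC-KO livers), the bile salt export pump, did not pass. *Cyp7b1*, of the alternative pathway, was at 18.4, 23.4 and 29.6 CPM in control and 5.94, 8.07 and 131 CPM in HSC-KO livers, where HSC-KO replicate 3 was above and the other HSC-KO libraries below all controls. Without replicate 3 *Cyp7b1* fell, at -1.76 (adjusted p = 0.0159).

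In the iron list, 4 of 21 genes fell. *Bmp2*, a ligand made by liver ECs that induces hepcidin, was at 18.98, 27.2 and 31.3 CPM in control and 0.482, 1.09 and 1.25 CPM in HSC-KO livers (log2 fold change -4.77, SE 0.38, adjusted p = 0.00130). *Bmp6*, the iron-regulated ligand of the same cells, was at 3.92, 5.11 and 6.44 CPM in control and 1.27, 1.75 and 1.39 CPM in HSC-KO livers (log2 fold change -1.81, SE 0.27, adjusted p = 0.0155). Groups were apart for both, and the falls held without HSC-KO replicate 3, at -5.02 (adjusted p = 0.00257) and -1.77 (adjusted p = 0.0335). *Hamp*, which encodes hepcidin itself, was at 409.6, 278 and 146 CPM in control and 279, 321 and 73.3 CPM in HSC-KO livers (log2 fold change -0.31, adjusted p = 0.898), with overlapping groups, as were those of the transferrin receptor *Tfrc* (13.5 to 20.3 CPM in control and 11.8 to 23.5 CPM in HSC-KO livers). *Hmox1*, a heme oxygenase, fell (log2 fold change -1.58, adjusted p = 0.0299) but was at -1.39 (adjusted p = 0.0501) without replicate 3, and *Smad6* is described with the pathway. *Hmox1* averaged 19.8 CPM in control whole liver and 1015 CPM in sorted control macrophages, scaled on their own, and the cell type behind its fall was not tested. The count of 4 was 2 without control replicate 1, and 1 without control replicate 2, control replicate 3 or HSC-KO replicate 1.

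Acute phase, stress, hypoxia and cell cycle lists gave few calls. *Saa3*, a serum amyloid, was the one of 20 acute phase genes that fell (log2 fold change -1.72, adjusted p = 0.0429), and it was at -1.86 (adjusted p = 0.0522) without HSC-KO replicate 3 and not called with any other library left out. The groups overlapped for *Saa1* (11.4 to 29.4 CPM in control and 8.68 to 28.4 CPM in HSC-KO livers) and *Saa2* (7.802 to 17.97 CPM in control and 2.396 to 20.6 CPM in HSC-KO livers), and *Lcn2* (16.96 to 52.7 CPM in control and 1.24 to 12.6 CPM in HSC-KO livers) did not pass. *Sesn2*, a stress-induced sestrin, was at 13.3, 17.996 and 16.1 CPM in control and 6.59, 6.99 and 5.71 CPM in HSC-KO livers and was the one of 17 stress genes that fell (log2 fold change -1.29, SE 0.17, adjusted p = 0.00848). *Atf3* (0.586 to 5.46 CPM in control and 0.989 to 8.17 CPM in HSC-KO livers), *Ddit3* (5.46 to 6.92 CPM in control and 5.001 to 6.903 CPM in HSC-KO livers) and *Cdkn1a* (8.48 to 41.9 CPM in control and 12.7 to 21.9 CPM in HSC-KO livers) did not pass. None of 16 hypoxia genes and none of 21 cell cycle genes passed in edgeR, at medians of -0.17 and 0.18. At an unadjusted p below 0.05 there were 6 and 2, and DESeq2 called 1 and 0. The first genes of these lists were *Vegfa* (152 to 171 CPM in control and 149.7 to 172 CPM in HSC-KO livers), *Slc2a1* (5.67 to 8.69 CPM in control and 3.803 to 11.99 CPM in HSC-KO livers) and *Adm* (1.16 to 1.63 CPM in control and 1.32 to 1.92 CPM in HSC-KO livers) for hypoxia, and *Mki67* (1.93 to 2.79 CPM in control and 1.77 to 11.4 CPM in HSC-KO livers), *Top2a* (1.58 to 1.81 CPM in control and 2.21 to 6.56 CPM in HSC-KO livers) and *Cdk1* (0.625 to 1.04 CPM in control and 1.06 to 2.19 CPM in HSC-KO livers) for the cell cycle.

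Sex-biased hepatocyte genes depended on HSC-KO replicate 3. Over all libraries, 0 of 10 male-biased genes passed in edgeR (0 in DESeq2, 2 at an unadjusted p below 0.05), at a median log2 fold change of 3.24, and without HSC-KO replicate 3 the median was -2.25 with 3 that fell. *Cyp2d9*, a male-biased cytochrome P450, was at 61.3, 12.7 and 32.3 CPM in control and 3.36, 3.34 and 938 CPM in HSC-KO livers, so the remaining HSC-KO libraries lay below all controls and replicate 3 far above them. *Elovl3*, an elongase of fatty acids, was at 1.37, 2.44 and 2.44 CPM in control and 0, 0 and 146 CPM in HSC-KO livers and followed the same order. So did *Cyp4a12a*, at 0.0906, 0.391 and 0.665 CPM in control and 0.0536, 0 and 195 CPM in HSC-KO livers, and *Hsd3b5*, at 9.85, 0.7297 and 12.3 CPM in control and 0, 0.0476 and 229 CPM in HSC-KO livers. Among 13 female-biased genes, *Sult3a1*, a sulfotransferase, was at 37.9, 174 and 149 CPM in control and 1.05, 1.79 and 0 CPM in HSC-KO livers and fell (log2 fold change -6.97, SE 1.19, adjusted p = 0.0256), also without replicate 3, at -6.40 (adjusted p = 0.00917), or without control replicate 1, but not without any of the other 4 libraries. *Cyp3a41a*, a female-biased cytochrome P450 with a near-identical copy, was at 341, 2437 and 1435 CPM in control and 179, 262 and 0.0696 CPM in HSC-KO livers. *Hao2*, a hydroxyacid oxidase, was at 17.2, 5.15 and 15.6 CPM in control and 60.9, 88.1 and 0 CPM in HSC-KO livers and rose only when replicate 3 was left out, at 2.55 (adjusted p = 0.0366).

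Few members of the GDF2 and BMP10 pathway itself were called. Of 22 pathway genes, 3 fell in edgeR, namely the deleted ligand genes and *Smad6* (chromosome 9, 63953076 to 64022059, minus strand), an inhibitory SMAD induced by the pathway. DESeq2 called 1 higher and 4 lower, and 4 were higher and 5 lower at an unadjusted p below 0.05. *Smad6* was at 13.7, 9.96 and 7.76 CPM in control and 1.94, 3.63 and 1.53 CPM in HSC-KO livers (log2 fold change -2.14, SE 0.37, adjusted p = 0.0264), and at -1.91 (adjusted p = 0.0448) without HSC-KO replicate 3. Its call was lost without control replicate 1, 2 or 3 or HSC-KO replicate 1, and *Bmp10* alone of the 3 remained called without control replicate 1 or 3. *Eng*, the coreceptor, was at 101, 103 and 112 CPM in control and 71.3, 62.2 and 64.4 CPM in HSC-KO livers and passed by the adjusted p alone (log2 fold change -0.67, SE 0.11, adjusted p = 0.0247). *Acvrl1*, the receptor ALK1, was at 4.55, 5.03 and 5.83 CPM in control and 7.28, 6.93 and 6.64 CPM in HSC-KO livers (log2 fold change 0.44, adjusted p = 0.331). The target gene *Id1* was at 12.6, 5.16 and 5.62 CPM in control and 9.53, 9.43 and 4.54 CPM in HSC-KO livers (log2 fold change 0.0083, adjusted p = 0.998). Its groups overlapped, and hepatocytes also make it.

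Sinusoidal EC genes fell almost as a block. Of 17 tested, 16 fell, with a median log2 fold change of -2.81, and without HSC-KO replicate 3 14 fell, at a median of -3.06. *Stab2* (chromosome 10, 86841198 to 87008025, minus strand), a scavenger receptor for hyaluronan, was at 86.04, 115 and 116 CPM in control and 12.7, 9.62 and 9.95 CPM in HSC-KO livers (log2 fold change -3.30, SE 0.18, adjusted p = 0.000348). *Lyve1*, another hyaluronan receptor, was at 12.7, 14.4 and 10.8 CPM in control and 0.174, 0.309 and 0.0696 CPM in HSC-KO livers (log2 fold change -6.06, SE 0.45, adjusted p = 0.00102). *Clec4g* (chromosome 8, 3707064 to 3720651, minus strand), the lectin LSECtin, was at 59.9, 73.1 and 67.6 CPM in control and 0, 0.179 and 0.0418 CPM in HSC-KO livers (log2 fold change -9.73, SE 0.62, adjusted p = 0.000531). Groups of these genes were far apart, with *Clec4g* at 0 in HSC-KO replicate 1. *Clec1b*, another lectin, was at 5.68, 12.2 and 7.69 CPM in control and 0.389, 0.643 and 0.111 CPM in HSC-KO livers (log2 fold change -4.46, SE 0.59, adjusted p = 0.0101). Macrophages also make *Clec1b*, which averaged 261 CPM in sorted control ECs and 624 CPM in sorted control macrophages, each scaled on their own. *Dnase1l3*, a secreted nuclease, was at 75.3, 82.5 and 87.3 CPM in control and 0.643, 1.43 and 0.641 CPM in HSC-KO livers (log2 fold change -6.49, SE 0.35, adjusted p = 0.000348). *Oit3* and *Gpr182*, an atypical receptor for chemokines, had log2 fold changes of -6.60 and -3.68.

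The remaining sinusoidal genes fell as well, with 1 exception. *Kit*, *Maf*, *Flt4* (VEGF receptor 3) and *Stab1*, a scavenger receptor, had log2 fold changes of -1.76, -1.23, -1.76 and -1.21. *F8*, coagulation factor VIII, was at 17.2, 29.9 and 29.3 CPM in control and 2.99, 3.32 and 5.63 CPM in HSC-KO livers (log2 fold change -2.68, SE 0.32, adjusted p = 0.00620). *Fcgr2b* and *Mrc1*, an Fc receptor and the mannose receptor, which macrophages also make, fell by -3.39 and -2.81. The one member that did not pass was *Gata4*, a transcription factor of sinusoidal ECs that stellate cells and hepatocytes also make, at 25.3, 22.9 and 20.7 CPM in control and 15.99, 16.8 and 20.98 CPM in HSC-KO livers (log2 fold change -0.36, adjusted p = 0.357). Without replicate 3, *Stab1* was at -1.12 (adjusted p = 0.0518) and *Tfec*, a transcription factor, at -1.91 (adjusted p = 0.0680), so these calls were lost.

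Genes of continuous capillaries rose, with exceptions. Of 18 tested, 10 rose and 2 fell, with a median log2 fold change of 1.72, and 9 rose without HSC-KO replicate 3. *Cd34* (chromosome 1, 194938819 to 194961279, plus strand), a sialomucin absent from most sinusoids, was at 3.21, 0.612 and 2.63 CPM in control and 27.1, 33.2 and 20.1 CPM in HSC-KO livers (log2 fold change 3.63, SE 0.55, adjusted p = 0.0157). *Emcn*, endomucin, was at 4.23, 2.28 and 3.103 CPM in control and 26.3, 32.4 and 32.1 CPM in HSC-KO livers (log2 fold change 3.24, SE 0.24, adjusted p = 0.00102). *Ly6c1* was at 0.679, 0.599 and 0.465 CPM in control and 22.8, 24.6 and 20.95 CPM in HSC-KO livers (log2 fold change 5.28, SE 0.20, adjusted p = 0.000147). The lowest HSC-KO value was above the highest control in each. *Apln* (chromosome X, 48025146 to 48034853, minus strand), the peptide apelin, was at 0.109, 0.104 and 0.0887 CPM in control and 10.9, 11.4 and 7.15 CPM in HSC-KO livers (log2 fold change 6.58, SE 0.31, adjusted p = 0.000226), and its receptor *Aplnr* was at 0.0724, 0.104 and 0 CPM in control and 11.97, 23.3 and 23.8 CPM in HSC-KO livers (log2 fold change 8.37, SE 0.66, adjusted p = 0.00120). Ligand and receptor thus rose in the same livers, from control levels at or below 0.109 CPM. *Rgcc*, a cell cycle regulator of capillary ECs, was at 0.0996, 0 and 0 CPM in control and 9.49, 6.02 and 6.45 CPM in HSC-KO livers (log2 fold change 7.54, SE 0.87, adjusted p = 0.00567).

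*Esm1*, an endocan of tip-like ECs, was at 1.27, 0.769 and 0.355 CPM in control and 18.8, 24.6 and 5.92 CPM in HSC-KO livers (log2 fold change 4.35, SE 0.65, adjusted p = 0.0153), with HSC-KO replicate 3 lowest among the HSC-KO libraries. *Plvap*, the diaphragm protein of fenestrae and caveolae, was at 57.7, 62.5 and 64.6 CPM in control and 115, 113 and 148 CPM in HSC-KO livers (log2 fold change 1.02, SE 0.14, adjusted p = 0.0116). Its log2 fold change without replicate 3 was 0.89 (adjusted p = 0.0114), so it passed by the adjusted p but not by size. *Vwf*, von Willebrand factor of large-vessel ECs, was at 14.9, 12.98 and 15.9 CPM in control and 2.33, 3.39 and 6.14 CPM in HSC-KO livers and fell (log2 fold change -1.88, SE 0.34, adjusted p = 0.0310). *Aqp1*, a water channel of ECs and cholangiocytes, was at 165, 173 and 196 CPM in control and 14.5, 23.6 and 26.03 CPM in HSC-KO livers and fell as well (log2 fold change -3.06, SE 0.23, adjusted p = 0.00113). These were the called members that fell, and both held without replicate 3, at -2.35 (adjusted p = 0.00434) and -3.22 (adjusted p = 0.00179), while 1 of them held without any other single library. The number of members that rose ranged from 6 to 9 when one library was left out, with the lowest without control replicate 3.

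**Figure D4:**
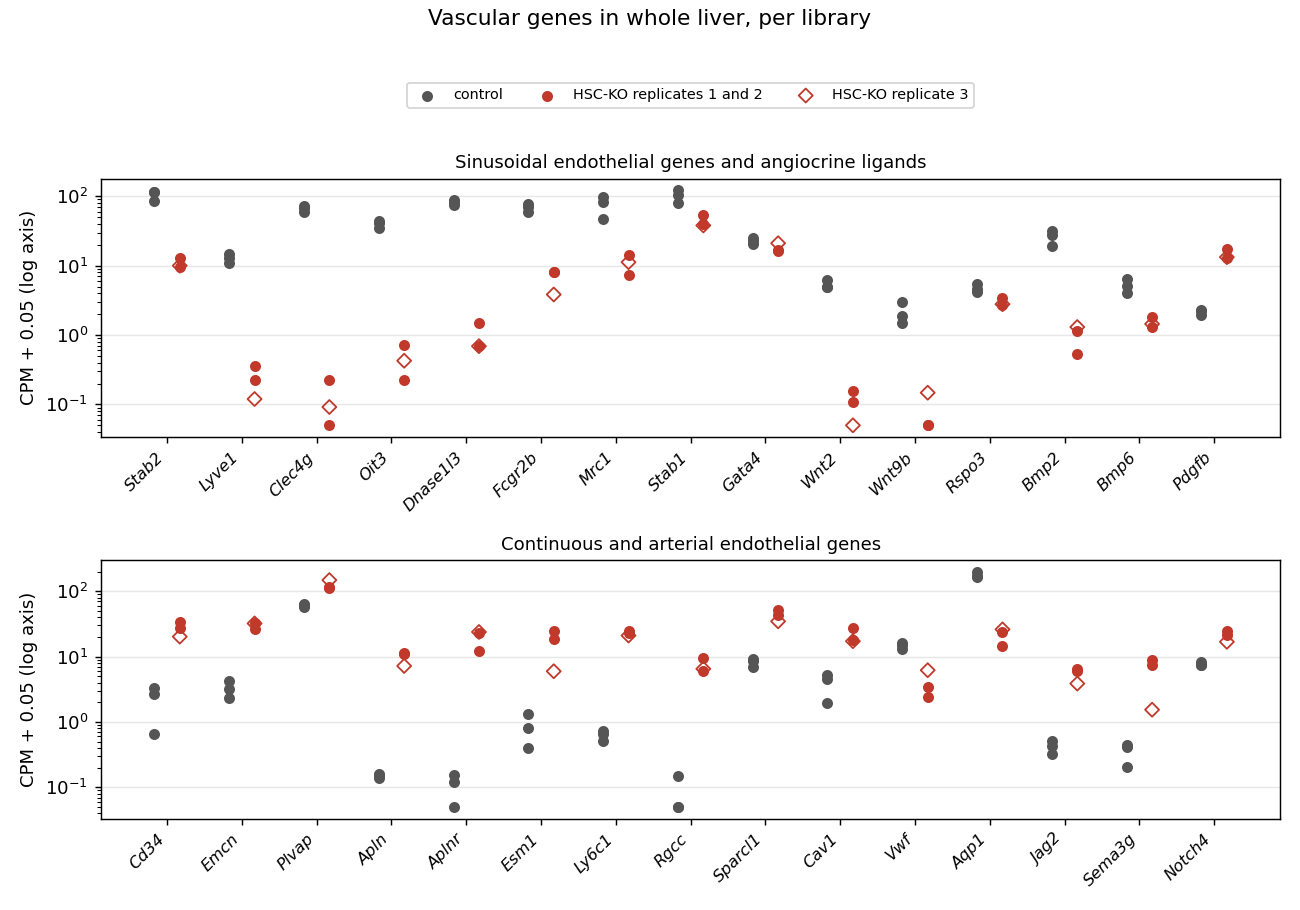
Level of sinusoidal, continuous, arterial and pan-endothelial genes and of vessel-derived ligands in each of the 6 libraries, in CPM plus 0.05 on a log axis, with symbols as in the plot of hepatocyte genes. *Clec4g* sits between 59.9 and 73.1 CPM in controls and at or below 0.179 CPM in HSC-KO livers, and *Aplnr* at or below 0.104 CPM in controls and between 11.97 and 23.8 CPM in HSC-KO livers.

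Genes shared by all ECs did not follow either pattern. Of 20 tested, 2 rose and 2 fell, at a median of 0.21, and their summed level was 537 to 646 CPM in control and 551 to 644 CPM in HSC-KO livers. *Cdh5*, VE-cadherin, was at 34.4, 42.6 and 44.95 CPM in control and 46.8, 69.3 and 49.05 CPM in HSC-KO livers (log2 fold change 0.44, adjusted p = 0.374), and *Kdr*, VEGF receptor 2, at 69.99, 99.4 and 99.9 CPM in control and 74.6, 88.8 and 69.6 CPM in HSC-KO livers (log2 fold change -0.21, adjusted p = 0.722). *Flt1*, VEGF receptor 1, was at 17.5, 19.7 and 22.99 CPM in control and 43.1, 45.3 and 41.1 CPM in HSC-KO livers and rose (log2 fold change 1.10, SE 0.13, adjusted p = 0.00657). *Ptprb*, the phosphatase VE-PTP, was at 88.9, 129.6 and 120.4 CPM in control and 45.2, 51.7 and 56.8 CPM in HSC-KO livers and fell (log2 fold change -1.14, SE 0.17, adjusted p = 0.0156). *Clec14a*, an EC lectin, fell and *Sox18*, a transcription factor, rose, at -1.14 and 1.08, the latter at 0.92 (adjusted p = 0.0518) without HSC-KO replicate 3. *Pecam1*, *Tie1* and *Robo4* were higher, and *Tek* and *Eng* lower, by the adjusted p alone, at log2 fold changes of 1.00, 0.76, 0.85, -0.86 and -0.67. The 2 rises and 2 falls of this list ranged from 1 to 2 and from 0 to 2 as single libraries were left out, with 0 falls without control replicate 2 or HSC-KO replicate 1. The share of ECs in each liver was not measured in these libraries.

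Of 21 arterial EC genes, 4 rose in edgeR, at a median of 0.34. DESeq2 called 6 higher and 1 lower, and 7 were higher and 4 lower at an unadjusted p below 0.05. *Jag2*, a Notch ligand, was at 0.462, 0.274 and 0.377 CPM in control and 6.51, 5.99 and 3.82 CPM in HSC-KO livers (log2 fold change 3.86, SE 0.34, adjusted p = 0.00182). *Notch4* was at 7.34, 7.402 and 8.31 CPM in control and 21.2, 24.6 and 16.8 CPM in HSC-KO livers (log2 fold change 1.44, SE 0.17, adjusted p = 0.00586). *Sema3g*, a semaphorin, and *Fbln5*, an elastic fibre protein, also rose, at 4.27 and 1.79. All 4 held without HSC-KO replicate 3, when *Dll4*, a further Notch ligand, at 1.12 (adjusted p = 0.0477), and *Efnb2*, ephrin B2, at 1.31 (adjusted p = 0.0350), joined them. *Gja5*, a connexin of arteries, was at 1.75, 0.717 and 1.19 CPM in control and 1.74, 1.999 and 1.23 CPM in HSC-KO livers (log2 fold change 0.44, adjusted p = 0.755), and *Sox17* (3.28 to 3.85 CPM in control and 2.897 to 4.23 CPM in HSC-KO livers) did not pass. *Gja4* (3.49 to 10.9 CPM in control and 1.38 to 2.25 CPM in HSC-KO livers) was lower in each HSC-KO library than in any control but did not pass.

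Of 18 genes in a list of ligands that vessels can supply to their neighbours, 4 fell (*Wnt2*, *Wnt9b*, *Bmp2* and *Bmp6*) and 1 rose (*Pdgfb*), at a median log2 fold change of -0.29. The list also holds genes that other liver cells make, as *Igf1* and *Cxcl12* averaged 489 and 385 CPM in control whole liver but 2.03 and 11.98 CPM in the sorted control ECs (n = 3), whose libraries were scaled on their own. *Wnt2* (chromosome 6, 17988940 to 18030585, minus strand), a Wnt ligand of sinusoidal and central vein ECs, was at 4.87, 6.06 and 4.89 CPM in control and 0.107, 0.0595 and 0 CPM in HSC-KO livers (log2 fold change -6.52, SE 0.67, adjusted p = 0.00338). *Wnt9b*, of central vein ECs, was at 1.46, 1.84 and 2.904 CPM in control and 0, 0 and 0.0975 CPM in HSC-KO livers (log2 fold change -5.99, SE 1.06, adjusted p = 0.0295). Both were at 0 in at least 1 HSC-KO library. The *Wnt9b* call was lost when any library other than HSC-KO replicate 3 was left out, with adjusted p between 0.0637 and 0.133. *Rspo3*, the R-spondin that amplifies Wnt signals around the central vein, was at 5.35, 4.13 and 4.62 CPM in control and 3.36, 2.702 and 2.73 CPM in HSC-KO livers (log2 fold change -0.68, adjusted p = 0.195). Its groups did not overlap, but it did not pass. *Pdgfb*, the growth factor that recruits mural cells, was at 2.26, 2.14 and 1.895 CPM in control and 12.8, 17.4 and 13.2 CPM in HSC-KO livers (log2 fold change 2.79, SE 0.19, adjusted p = 0.000792), and it too was shown by the study from these libraries. Of the 4 falls, 2 were called without control replicate 2, control replicate 3 or HSC-KO replicate 1. The promoter of *Wnt2* (chr6:18030396-18030695, minus strand, GRCm38.p6, RefSeq) is given because the gene was nearly lost. Its capitals mark GGCGCC, the palindrome bound by SMAD1 and SMAD5, which 12% of all 27025 promoters hold, and which 0 of the 3 pathway genes that fell held.
Wnt2: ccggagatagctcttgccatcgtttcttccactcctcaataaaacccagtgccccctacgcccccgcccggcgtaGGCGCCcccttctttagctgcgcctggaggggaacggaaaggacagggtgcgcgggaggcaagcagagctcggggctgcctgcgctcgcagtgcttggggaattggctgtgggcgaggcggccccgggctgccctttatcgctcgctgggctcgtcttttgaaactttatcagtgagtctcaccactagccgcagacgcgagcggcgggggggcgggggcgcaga

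Most Kupffer cell genes fell. Of 15 tested, 9 fell, none of which was above 1.06 CPM in any HSC-KO library, with a median log2 fold change of -6.15, and 10 fell without HSC-KO replicate 3. *Clec4f* (chromosome 6, 83644542 to 83656187, minus strand), the lectin that defines KCs in mice, was at 104, 192 and 135 CPM in control and 0.268, 0.286 and 0.0557 CPM in HSC-KO livers (log2 fold change -9.44, SE 0.53, adjusted p = 0.000348). *Vsig4*, a complement receptor, was at 23.97, 45.9 and 36.2 CPM in control and 0.0536, 0.286 and 0.4597 CPM in HSC-KO livers (log2 fold change -7.05, SE 0.58, adjusted p = 0.00139). *Timd4* (chromosome 11, 46810800 to 46844332, plus strand), a phosphatidylserine receptor of long-lived resident KCs, was at 5.95, 10.3 and 10.97 CPM in control and 0.121, 0.202 and 0 CPM in HSC-KO livers (log2 fold change -6.34, SE 0.75, adjusted p = 0.00620). No HSC-KO library exceeded 0.46 CPM for these genes. *Cd5l*, a secreted scavenger protein, was at 85.4, 141 and 116 CPM in control and 0.161, 1.06 and 0.501 CPM in HSC-KO livers (log2 fold change -7.62, SE 0.62, adjusted p = 0.00137). *Cd207*, langerin, was at 3.18, 1.94 and 4.05 CPM in controls and had 0 counts in all HSC-KO livers, at least 235-fold lower against the floor of 3 counts over the group.

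*Folr2*, *Marco*, *Fabp7* and *Cxcl13* also fell, at log2 fold changes of -4.94, -6.15, -6.87 and -7.65, and 63.1% of the exon bases of *Folr2* overlap another gene. *Cd163*, the hemoglobin scavenger receptor, was at 10.7, 23.4 and 20.2 CPM in control and 0.7102, 2.01 and 4.39 CPM in HSC-KO livers (log2 fold change -2.93, adjusted p = 0.0546), and it passed without HSC-KO replicate 3, at -3.72 (adjusted p = 0.0176). *Nr1h3*, the receptor LXRalpha, which hepatocytes also make, was at 95.1, 96.8 and 86.7 CPM in control and 84.2, 80.8 and 69.3 CPM in HSC-KO livers (log2 fold change -0.25, adjusted p = 0.471).

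Some genes of macrophages in general fell. Of 17 tested, 7 fell, at a median log2 fold change of -1.18, and the summed level of the list was 483 to 747 CPM in control and 198 to 414 CPM in HSC-KO livers. *Csf1r*, the receptor for the growth factor CSF1, was at 64.1, 113 and 90.99 CPM in control and 18.7, 22.7 and 18.2 CPM in HSC-KO livers (log2 fold change -2.17, SE 0.22, adjusted p = 0.00305). *Adgre1*, which encodes F4/80, was at 15.1, 30.8 and 29.9 CPM in control and 7.79, 8.75 and 6.52 CPM in HSC-KO livers (log2 fold change -1.72, SE 0.28, adjusted p = 0.0213). *C1qa*, of complement C1q, was at 38.1, 56.9 and 46.2 CPM in control and 21.9, 23.8 and 13.8 CPM in HSC-KO livers (log2 fold change -1.25, SE 0.24, adjusted p = 0.0377). *C1qb*, *C1qc* and *Cybb*, a subunit of the phagocyte oxidase, fell at -1.22, -1.41 and -1.37, and *Mertk*, a receptor for dying cells, at -1.19. The groups did not overlap in these genes. *Cd68* (7.22 to 12.1 CPM in control and 2.605 to 6.34 CPM in HSC-KO livers) was lower in each HSC-KO library than in any control but did not pass. *Lyz2* and *Mpeg1* were at 64.8, 86.004 and 70.3 CPM in control and 50.2, 53.2 and 28.1 CPM in HSC-KO livers (log2 fold change -0.75, adjusted p = 0.223) and at 65.9, 118 and 109 CPM in control and 75.7, 108 and 39.3 CPM in HSC-KO livers (log2 fold change -0.39, adjusted p = 0.761). The count of 7 was fragile, as 1 gene fell when control replicate 2, control replicate 3, HSC-KO replicate 1 or HSC-KO replicate 2 was left out, and 7 fell without HSC-KO replicate 3.

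Among 17 genes of monocyte-derived macrophages, 2 rose and 1 fell in edgeR, at a median log2 fold change of -0.26. DESeq2 called 2 higher and 3 lower, and 4 were higher and 3 lower at an unadjusted p below 0.05. *Cx3cr1*, the fractalkine receptor, was at 1.18, 1.04 and 1.55 CPM in control and 7.81, 13.5 and 8.497 CPM in HSC-KO livers (log2 fold change 2.98, SE 0.29, adjusted p = 0.00276). *Ms4a7* was at 0.543, 0.625 and 0.521 CPM in control and 3.97, 4.96 and 2.55 CPM in HSC-KO livers (log2 fold change 2.76, SE 0.33, adjusted p = 0.00645). Both rises held without HSC-KO replicate 3, at 3.08 (adjusted p = 0.00432) and 2.99 (adjusted p = 0.00360). *Spp1*, osteopontin, which cholangiocytes also make, fell (log2 fold change -1.37, adjusted p = 0.0140), but was not called without control replicate 1, control replicate 3 or HSC-KO replicate 2. *Ccr2* and *Trem2*, markers of recruited and of lipid-associated macrophages, were at 1.65, 1.42 and 0.942 CPM in control and 0.6298, 1.55 and 0.724 CPM in HSC-KO livers (log2 fold change -0.46, adjusted p = 0.773) and at 0.7697, 1.06 and 0.6095 CPM in control and 2.05, 2.99 and 0.724 CPM in HSC-KO livers (log2 fold change 1.24, adjusted p = 0.379).

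**Figure D5:**
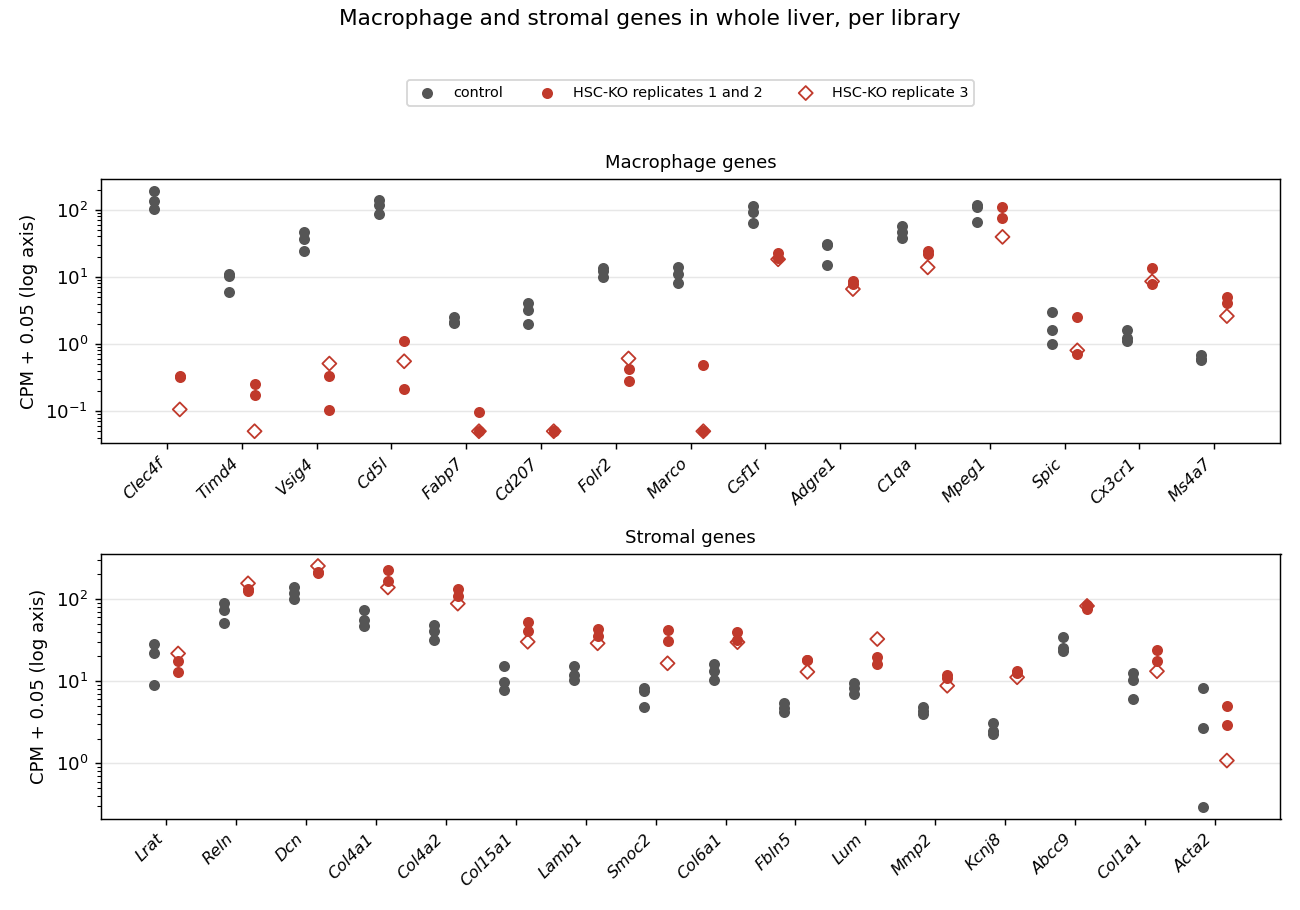
Level of Kupffer cell, macrophage, matrix, mural and stellate cell genes in each of the 6 libraries, in CPM plus 0.05 on a log axis, with symbols as in the plot of hepatocyte genes. *Clec4f* sits between 104 and 192 CPM in controls and at or below 0.286 CPM in HSC-KO livers, and *Col4a1* between 47.2 and 73.1 CPM in controls and between 138 and 226 CPM in HSC-KO livers.

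Other immune lists held few calls. None of 17 T and NK cell genes, 9 dendritic cell genes and 10 MHC class II genes passed in edgeR, at medians of -1.03, -1.22 and -0.12. At an unadjusted p below 0.05 there were 5, 2 and 2, each of them lower, and DESeq2 called 1, 2 and 0. The groups overlapped for the T cell genes *Cd3e* (0.5795 to 0.743 CPM in control and 0.0418 to 0.7498 CPM in HSC-KO livers), *Cd4* (0.798 to 1.21 CPM in control and 0.978 to 1.92 CPM in HSC-KO livers) and *Cd8a* (0.706 to 1.11 CPM in control and 0.4597 to 1.23 CPM in HSC-KO livers). The first dendritic cell genes of their list were low, with *Flt3* (0 to 0.516 CPM in control and 0.0557 to 0.369 CPM in HSC-KO livers), *Xcr1* (0.398 to 0.8201 CPM in control and 0.0536 to 0.571 CPM in HSC-KO livers) and *Clec9a* (2.32 to 4.89 CPM in control and 0.752 to 2.17 CPM in HSC-KO livers), and the class II genes were *H2-Aa* (27.8 to 36.4 CPM in control and 30.5 to 54.6 CPM in HSC-KO livers), *H2-Ab1* (26.3 to 33.5 CPM in control and 26.4 to 43.6 CPM in HSC-KO livers) and *Cd74* (81.7 to 103 CPM in control and 68.1 to 113 CPM in HSC-KO livers). *Csf3r*, the G-CSF receptor, was the one of 8 neutrophil genes that fell (log2 fold change -1.52, adjusted p = 0.0256). It averaged 5.39 CPM in control whole liver and 44.5 CPM in sorted control macrophages, scaled on their own, and the cell type behind its fall was not tested. Neutrophil *S100a8* (0.499 to 1.603 CPM in control and 0 to 0.402 CPM in HSC-KO livers) and *S100a9* (0.687 to 3.13 CPM in control and 0.858 to 1.07 CPM in HSC-KO livers) did not pass, and *Ly6g* was too low to be tested. The *Csf3r* call was lost without control replicate 1, 2 or 3 or HSC-KO replicate 1. In the interferon list, *Rsad2*, the antiviral enzyme viperin, was at 12.2, 14.05 and 10.3 CPM in control and 50.3, 63.2 and 25.99 CPM in HSC-KO livers and was the one of 16 members that rose (log2 fold change 1.93, SE 0.31, adjusted p = 0.0207), a call lost without control replicate 1, 2 or 3 or HSC-KO replicate 1. The interferon-induced *Isg15* (9.11 to 15.2 CPM in control and 5.66 to 16.3 CPM in HSC-KO livers), *Ifit1* (11.6 to 19.4 CPM in control and 9.92 to 21.8 CPM in HSC-KO livers) and *Ifit3* (18.7 to 26.2 CPM in control and 16.4 to 41.99 CPM in HSC-KO livers) did not pass. Of 13 chemokine genes, *Cx3cl1*, the ligand of the fractalkine receptor, was at 1.096, 1.07 and 0.809 CPM in control and 3.404, 2.55 and 2.26 CPM in HSC-KO livers and rose (log2 fold change 1.46, SE 0.30, adjusted p = 0.0480). *Ccl21a*, a chemokine of lymphatic vessels and portal stroma with close copies in the genome, rose at 2.01, and *Ccl6* fell at -2.58. Both chemokine rises lost their call when any library other than HSC-KO replicate 3 was left out. *Ccl2* (0.43002 to 0.7697 CPM in control and 0.452 to 0.683 CPM in HSC-KO livers), *Cxcl1* (3.39 to 5.22 CPM in control and 4.18 to 9.19 CPM in HSC-KO livers) and *Cxcl10* (2.21 to 4.48 CPM in control and 1.96 to 5.701 CPM in HSC-KO livers) did not pass.

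Some matrix genes of the basement membrane rose. Of 24 tested, 5 rose, with a median log2 fold change of 0.83. *Col4a1* (chromosome 8, 11198423 to 11312826, minus strand) and *Col4a2*, the main chains of type IV collagen, were at 55.2, 47.2 and 73.1 CPM in control and 164, 226 and 138 CPM in HSC-KO livers (log2 fold change 1.59, SE 0.23, adjusted p = 0.0144) and at 40.3, 31.9 and 48.8 CPM in control and 108, 131 and 88.02 CPM in HSC-KO livers (log2 fold change 1.43, SE 0.20, adjusted p = 0.0132). *Lamb1*, a laminin chain, was at 11.7, 10.3 and 15.2 CPM in control and 35.1, 43.3 and 28.9 CPM in HSC-KO livers (log2 fold change 1.53, SE 0.20, adjusted p = 0.0101). *Col15a1*, a collagen of continuous vessels, was at 15.4, 9.799 and 7.86 CPM in control and 40.7, 53.01 and 30.2 CPM in HSC-KO livers (log2 fold change 1.90, SE 0.30, adjusted p = 0.0184). In these genes every HSC-KO library was above every control, and HSC-KO replicate 3 was the lowest HSC-KO library. *Smoc2*, a calcium-binding matrix protein, rose at 2.11. The count moved with the libraries, from 1 to 8 genes over the fits without one library. It was 2 without control replicate 1 or HSC-KO replicate 1, lowest without control replicate 2, and highest, with *Col4a3*, *Col4a4* and *Lamc1* added, without HSC-KO replicate 3. *Col4a3*, of the type IV collagen of specialised membranes, was at 0.8602, 2.42 and 2.36 CPM in control and 13.9, 14.2 and 2.47 CPM in HSC-KO livers (log2 fold change 2.44, adjusted p = 0.141). The laminin gene *Lama4* (9.52 to 10.2 CPM in control and 6.02 to 13.7 CPM in HSC-KO livers) did not pass.

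In the interstitial matrix, 4 of 24 genes rose, at a median of 0.65. *Col6a1* and *Col6a2*, chains of type VI collagen, were at 13.3, 10.3 and 15.9 CPM in control and 32.1, 39.3 and 29.8 CPM in HSC-KO livers (log2 fold change 1.36, SE 0.19, adjusted p = 0.0120) and at 8.27, 6.62 and 8.71 CPM in control and 24.7, 27.4 and 18.7 CPM in HSC-KO livers (log2 fold change 1.59, SE 0.18, adjusted p = 0.00586). *Ltbp1*, which stores latent TGF-beta, rose at 1.54, and *Fbln5* is described with the arterial genes. Without control replicate 1, 2 of the 4 rises were called. *Bgn*, the proteoglycan biglycan, was at 107, 93.8 and 131 CPM in control and 201, 219.8 and 185 CPM in HSC-KO livers and passed by the adjusted p alone (log2 fold change 0.87, adjusted p = 0.0336). *Col5a1* (11.6 to 16.1 CPM in control and 16.8 to 20.6 CPM in HSC-KO livers) and fibronectin *Fn1* (1891 to 2494 CPM in control and 1769 to 2481 CPM in HSC-KO livers) did not pass. In the matrix turnover list, *Mmp2* and *Mmp11*, metalloproteinases, were the 2 of 21 genes that rose, at 1.28 and 2.10. Without HSC-KO replicate 3, 4 rose, without control replicate 1 there was 1, and without any of the other 4 libraries there were 0. *Mmp14* (45.99 to 66.9 CPM in control and 29.3 to 49.4 CPM in HSC-KO livers) did not pass, and the inhibitor *Timp1* was too low to be tested.

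Few genes of the stellate cells, in which the deletion took place, were called. Of 18 genes of quiescent HSCs, edgeR called 0, at a median of 0.34, DESeq2 called 1, and 8, each of them higher, had an unadjusted p below 0.05. The summed level of the list was 536 to 696 CPM in control and 819 to 925 CPM in HSC-KO livers, without overlap. *Lrat*, the retinol esterifying enzyme whose gene drove the Cre, was at 8.92, 22.3 and 28.2 CPM in control and 13.04, 17.6 and 21.7 CPM in HSC-KO livers (log2 fold change -0.18, adjusted p = 0.920). *Reln*, reelin, was at 74.1, 51.6 and 90.4 CPM in control and 132, 126 and 156 CPM in HSC-KO livers (log2 fold change 0.94, adjusted p = 0.0671), and did not pass although its groups did not overlap. *Ecm1* (106 to 125 CPM in control and 121 to 173 CPM in HSC-KO livers), a secreted inhibitor of TGF-beta activation, did not pass. *Dcn*, decorin, and *Lhx2*, a transcription factor that restrains HSC activation, passed by the adjusted p alone, at 0.90 and 0.94.

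Of 23 genes of activated HSCs and myofibroblasts, 2 rose in edgeR, at a median of 0.39. DESeq2 called 4 higher and 1 lower, and 8 were higher and 1 lower at an unadjusted p below 0.05. The summed level was 117 to 212 CPM in control and 222 to 314 CPM in HSC-KO livers, also without overlap. The rises were in *Lum*, the proteoglycan lumican, at 8.25, 7.01 and 9.48 CPM in control and 19.9, 16.1 and 32.6 CPM in HSC-KO livers (log2 fold change 1.47, SE 0.27, adjusted p = 0.0338), and in *Mmp2*, at 4.82, 4.3002 and 3.89 CPM in control and 10.99, 11.9 and 8.75 CPM in HSC-KO livers (log2 fold change 1.28, SE 0.18, adjusted p = 0.0135). *Acta2*, smooth muscle actin of myofibroblasts, was at 8.29, 0.248 and 2.64 CPM in control and 2.88, 4.94 and 1.03 CPM in HSC-KO livers (log2 fold change -0.34, adjusted p = 0.946). *Col1a2* (10.1 to 21.5 CPM in control and 25.6 to 37.4 CPM in HSC-KO livers) did not pass. *Col1a1* and *Col3a1*, further fibrillar collagens, were at 12.4, 6.01 and 10.2 CPM in control and 17.4, 23.8 and 13.2 CPM in HSC-KO livers (log2 fold change 0.93, adjusted p = 0.227) and at 47.97, 18.6 and 43.8 CPM in control and 84.6, 104 and 60.8 CPM in HSC-KO livers (log2 fold change 1.18, adjusted p = 0.182). Of these 2 rises, 1 was called without control replicate 1 or HSC-KO replicate 2 and 0 without control replicate 2, control replicate 3 or HSC-KO replicate 1. In the 3 collagen genes every HSC-KO library was above every control, although edgeR called none of them, while the groups of *Acta2* overlapped, with controls from 0.248 to 8.29 CPM.

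Mural cell genes held 3 rises among 13 genes, at a median of 0.75. *Kcnj8* and *Abcc9*, the subunits of the potassium channel of pericytes, were at 3.07, 2.22 and 2.43 CPM in control and 13.1, 12.4 and 11.1 CPM in HSC-KO livers (log2 fold change 2.24, SE 0.19, adjusted p = 0.00148) and at 23.1, 25.1 and 34.1 CPM in control and 75.2, 84.6 and 82.4 CPM in HSC-KO livers (log2 fold change 1.56, SE 0.17, adjusted p = 0.00402). Their groups were apart, and both held without HSC-KO replicate 3, at 2.31 (adjusted p = 0.00339) and 1.54 (adjusted p = 0.00880). *Smtn*, smoothelin of contractile smooth muscle, rose at 1.27, while *Myh11*, smooth muscle myosin, was at 6.73, 2.66 and 3.56 CPM in control and 6.95, 6.39 and 3.08 CPM in HSC-KO livers (log2 fold change 0.34, adjusted p = 0.833). *Notch3* (1.36 to 3.31 CPM in control and 1.67 to 7.52 CPM in HSC-KO livers) and *Cspg4* (0 to 0.317 CPM in control and 0.446 to 2.34 CPM in HSC-KO livers), of pericytes, did not pass. The channel genes are also made by HSCs, and in the sorted ECs of control mice, whose libraries were scaled on their own, *Kcnj8*, *Abcc9* and *Smtn* averaged 14.9, 17.2 and 64.3 CPM (n = 3). The cell type behind these rises was not tested.

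Markers of other cell types and tissues gave few calls. The cholangiocyte genes *Krt19* (0.925 to 2.06 CPM in control and 0.3204 to 1.55 CPM in HSC-KO livers), *Krt7* (0.443 to 1.37 CPM in control and 0.585 to 0.938 CPM in HSC-KO livers) and *Epcam* (2.16 to 2.63 CPM in control and 0.891 to 1.501 CPM in HSC-KO livers) did not pass, and of 11 cholangiocyte genes *Spp1* was the one that fell. The 7 mesothelial and 5 erythroid genes tested had 0 calls in edgeR, 0 in DESeq2 and 0 at an unadjusted p below 0.05. They were led by *Msln* (0.495 to 2.65 CPM in control and 0.209 to 0.978 CPM in HSC-KO livers), *Upk3b* (0.495 to 3.11 CPM in control and 0.474 to 1.796 CPM in HSC-KO livers) and *Wt1* (0.454 to 0.906 CPM in control and 0 to 2.14 CPM in HSC-KO livers), and by *Hba-a1* (46.2 to 69.1 CPM in control and 24.9 to 62.6 CPM in HSC-KO livers), *Hbb-bs* (76.7 to 103 CPM in control and 40.3 to 109 CPM in HSC-KO livers) and *Alas2* (10.2 to 15.6 CPM in control and 11.8 to 108 CPM in HSC-KO livers), of which the globin genes share reads with close copies. *Adipoq*, a marker of fat, was at 2.58, 0.156 and 0 CPM in control and 0, 0.0595 and 0 CPM in HSC-KO livers, so control replicate 1 carried most of it. The pancreatic gene *Cela2a* (0.208 to 1.07 CPM in control and 0.153 to 1.005 CPM in HSC-KO livers) did not pass, and *Pnlip* was too low to be tested. The part of such tissue in any result was not tested. Summed over the list, the fat, gut and pancreas markers were at 21.1 to 29.8 CPM in control and 9.69 to 13.5 CPM in HSC-KO livers, of which the gut galectin gene *Lgals4* (11.4 to 26.9 CPM in control and 8.05 to 11.2 CPM in HSC-KO livers) alone made up the larger part in each library.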

How the data were processed

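RNA was taken from whole liver with TRIzol and sequenced in 6 libraries. The deposited values are raw counts per gene (48820 genes per library). The authors made them, per the submitters' processing notes, with FastQC, HISAT2 and featureCounts on mm10 (GRCm38), and those notes also name DESeq2. The strand setting is not given in the sources used here, so overlapping genes are marked where they are named, and the library kit is named differently in the labels and in the methods. Replicate numbers are those of the labels. The study's methods call the libraries of a group independent biological replicates, and litters or extractions are not given. Every count column was mapped to a sample (0 left over), and 0 rows named no gene.

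Genes passing filterByExpr (minimum count 10, total 15) were normalised by TMM and tested with edgeR 4.0.16 (quasi-likelihood F test, R 4.3.3), HSC-KO against control, with Benjamini-Hochberg adjustment over all genes tested. The SE is the log2 fold change divided by the square root of F. The thresholds were an adjusted p of 0.05 and a log2 fold change of 1, and 117 of the genes called were in a list. The test was run on simulated data with known changes before it was used. It recovered 56.1% of changes at an absolute log2 fold change of 1.5, 74.6% at 2 and 82.1% at 3, and called 10 unchanged genes. A gene that did not pass is therefore not shown to be unchanged. Principal components used variance-stabilised counts from DESeq2 1.42.0. No pair of libraries agreed within sampling noise. Members and gene lists were chosen with earlier results of these data known. Genes named were *Gdf2*, *Bmp10*, the 8 largest rises and falls without overlap between groups, leaving out genes of the sex chromosomes, the first 3 members and up to 6 called members of each list, and further members to complete a list or as its exception. Some genes that this rule names are not reported here. Alternatives covered scaling, filtering, the test, a replicate block, *Xist* as a covariate and each library left out. Gene coordinates are from GENCODE vM21.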

Additional observations from a re-analysis of the deposited data

How the results depend on the processing

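The 132 called genes given with a fold change kept their direction in every alternative that gave them a value. Of these, 132 were also called with DESeq2 size factors, 131 by the DESeq2 Wald test, 127 with library size alone, 124 with *Xist* as a covariate, 120 without a low-count filter, 115 with at least 10 counts in every library (which left 17 without a value) and 66 by glmTreat, and 72 were called with each library left out in turn. Over all genes, the 425 calls (177 higher, 248 lower) became 814 (339 and 475) by the DESeq2 Wald test and 142 (56 and 86) by glmTreat, which tests against a log2 fold change of 1. Leaving out one library gave 188 to 451 calls, 77 to 207 higher and 101 to 244 lower. Library size alone gave a median of all genes of -0.119 (-0.0098 with TMM) and 437 calls, of which 33.6% were higher, and with the *Xist* covariate 46.8% of 476 calls were higher.

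Calls in the lists, 117 in all, became 55 by glmTreat and 72 to 125 with a library left out. By glmTreat 5 of the 10 pericentral genes, 1 pan-macrophage gene and 0 basement membrane genes passed, and leaving out a library gave 6 to 9, 1 to 7 and 1 to 8 of these, and 6 to 9 rises of continuous EC genes. With the *Xist* covariate 8 basement membrane genes rose. Requiring 10 counts in every library left 3 Kupffer cell genes called, since most were near 0 in HSC-KO livers and were dropped from the test. PC1 held 52.9% of the variance on log2 CPM, 43.79% over all genes, and 51.51% to 71.36% with a library left out.

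With the replicate number as a block, 271 genes were called (105 higher), 251 of them shared with the unblocked fit, 106 of the 132 genes above were called, and 4 pan-macrophage and 2 basement membrane genes passed. Deviations of same-numbered libraries correlated at 0.0147, 0.0490 and 0.0133, and those of differently numbered libraries at -0.0457 to 0.0246. Litters and extractions are not given, so these values cannot decide whether the libraries were paired.

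Of the genes given with a fold change, signs turned in 6, none of them called with all libraries, and the median of the male-biased list, described by its levels, turned from 3.24 to -2.25 without HSC-KO replicate 3. *Acta2* was at 1.03 without control replicate 1 and 0.064 without HSC-KO replicate 3 (-0.93 to 1.03 over the libraries left out). *Cyp7b1* was at -0.47 with the block, -1.79 with the *Xist* covariate and -1.76 without HSC-KO replicate 3 (up to 1.55 without HSC-KO replicate 1). *Hamp* was at 0.040 with the *Xist* covariate, 0.089 without control replicate 1 and 0.11 without HSC-KO replicate 3 (down to -0.66 without HSC-KO replicate 2). *Hnf4a* was at -0.020 with library size alone, -0.047 with the *Xist* covariate, -0.049 without control replicate 2 and -0.024 without HSC-KO replicate 3 (up to 0.27 without HSC-KO replicate 2). *Id1* was at -0.11 with library size alone and between -0.20 and -0.15 without control replicate 2 or 3 or HSC-KO replicate 1 or 2, with -0.16 in 2 of these fits, and up to 0.55 without control replicate 1. *Lrat* was at 0.18 without control replicate 3 (down to -0.52 without control replicate 1). The causes were not tested. The depth of each library was at least 73941995 counts, so genes at 0 in HSC-KO livers are limited by this depth and by 3 libraries per group.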

Other observations

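Many of the changed genes belonged to none of the lists, 308 of the 425. The ones described here were chosen after their values were seen, from the 44 rises and 58 falls among them whose log2 CPM averaged 3 or more. *Podxl*, the sialomucin podocalyxin, was at 13.2, 12.3 and 19.5 CPM in control and 68.9, 63.7 and 55.5 CPM in HSC-KO livers (log2 fold change 2.06, SE 0.20, adjusted p = 0.00264). *Itga6*, an integrin subunit that binds laminin, was at 4.47, 3.87 and 3.71 CPM in control and 15.6, 24.2 and 21.7 CPM in HSC-KO livers (log2 fold change 2.35, SE 0.20, adjusted p = 0.00145). *Emp1*, a tetraspan membrane protein, was at 2.48, 1.45 and 2.85 CPM in control and 15.4, 19.1 and 13.6 CPM in HSC-KO livers (log2 fold change 2.82, SE 0.28, adjusted p = 0.00295). Every HSC-KO library was above every control in these genes. *Pcdh17*, a protocadherin, *Ehd2*, an ATPase of caveolae, and *Fabp4*, a fatty acid carrier of capillary ECs, rose at log2 fold changes of 2.75, 2.05 and 2.02. *Mcf2l*, a guanine nucleotide exchange factor, was at 0.842, 1.69 and 1.02 CPM in control and 18.8, 15.6 and 14.7 CPM in HSC-KO livers, *Fam101b*, a filamin regulator, at 1.98, 1.58 and 1.21 CPM in control and 23.9, 28.4 and 20.9 CPM in HSC-KO livers, and *Cd200*, a ligand that restrains myeloid cells, at 1.78, 0.899 and 1.42 CPM in control and 14.4, 14.3 and 15.8 CPM in HSC-KO livers. *Clec2h*, a lectin-like gene, was at 1.49, 1.09 and 2.46 CPM in control and 24.4, 5.61 and 53.6 CPM in HSC-KO livers, so its HSC-KO libraries differed widely among themselves. *Igfbp3*, a carrier of insulin-like growth factors, was at 16.8, 16.6 and 20.7 CPM in control and 91.3, 96.5 and 45.3 CPM in HSC-KO livers (log2 fold change 2.11, SE 0.28, adjusted p = 0.0105). *Acmsd*, an enzyme that diverts tryptophan from NAD synthesis, was at 10.97, 15.2 and 14.97 CPM in control and 61.7, 99.3 and 32.4 CPM in HSC-KO livers (log2 fold change 2.23, SE 0.38, adjusted p = 0.0252). Each of the genes named here also rose without HSC-KO replicate 3, with *Clec2h* nearest to the threshold, at 3.16 (adjusted p = 0.0470).

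On the falling side, *Adam23*, a membrane protein of the disintegrin family, was at 15.5, 28.2 and 27.1 CPM in control and 0.348, 0.571 and 0.557 CPM in HSC-KO livers (log2 fold change -5.58, SE 0.33, adjusted p = 0.000348). *Cd55*, which shields cells from complement, was at 18.1, 16.3 and 16.5 CPM in control and 0.174, 0.607 and 0.153 CPM in HSC-KO livers (log2 fold change -5.74, SE 0.50, adjusted p = 0.00182). *Cfp*, the complement factor properdin made by myeloid cells, was at 23.7, 43.2 and 33.1 CPM in control and 4.38, 5.74 and 2.99 CPM in HSC-KO livers (log2 fold change -2.93, SE 0.30, adjusted p = 0.00349). Each was lower in every HSC-KO library than in any control. *Plxnc1*, a semaphorin receptor, *Itgal*, an integrin subunit of leukocytes, and *Plbd1*, a lysosomal phospholipase, fell at -3.42, -2.52 and -2.83. *Rdh9*, a retinol dehydrogenase of the liver, was at 129, 45.1 and 93.2 CPM in control and 2.24, 2.69 and 3.29 CPM in HSC-KO livers (log2 fold change -5.02, SE 0.41, adjusted p = 0.00137). *Inhbe*, which encodes the hepatocyte-derived activin E subunit, was at 37.1, 25.7 and 36.4 CPM in control and 6.95, 6.27 and 9.49 CPM in HSC-KO livers (log2 fold change -2.13, SE 0.21, adjusted p = 0.00305). *Cyp2c38* and *Acnat2*, whose reads can be shared with close copies, fell at -3.46 and -2.36. *Ugt1a10*, a glucuronosyltransferase, fell at -3.45 but did not pass without HSC-KO replicate 3, at -3.52 (adjusted p = 0.0857).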
